A study of Drosophila melanogaster with 8 samples.

Results

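The 9 genes described here make heme or store and sense iron in Drosophila. They are Alas, Coprox, Ppox and FeCH of heme synthesis, the ferritin genes Fer1HCH, Fer2LCH and Fer3HCH, and Irp-1A and Irp-1B, which encode iron regulatory protein and its paralog. They were chosen by name, out of 13945 annotated protein-coding genes, with earlier results of these data known. The counts below therefore describe these genes and are not independent evidence of frequent binding. Each gene was looked up in the authors' list of genes under KDM5 peaks and in the list of 4931 peaks. Genes without an entry were counted as not bound. All 9 were found in the annotation, 7 of the 9 were listed, and Fer1HCH and Fer3HCH were not.

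KDM5 is a histone demethylase that acts on H3K4 and takes part in transcription in further ways too. Its binding was profiled by Targeted DamID (TaDa), in which a fusion with the bacterial Dam methylase marks GATC sites near the places where the fusion protein sits. Larvae carried tub-Gal80[ts], spok-Gal4 and either UAS-LT3-damkdm5 (Dam:KDM5, 4 samples) or UAS-LT3-dam (Dam alone, 4 samples), and their own Kdm5 gene was wild type. The spok-Gal4 driver limits the Dam proteins to the prothoracic gland, the larval organ that makes ecdysone, but DNA was taken from pools of 100 whole wandering 3rd instar larvae for each sample. Egg laying lasted 24 h, and after 5 days at 18°C a shift to 29°C for 2 days inactivated Gal80 and switched the transgenes on. Only the average of the 4 Dam:KDM5 profiles against Dam alone was used here, so no value below carries a replicate error, the read count of each sample is unknown (the methods give only a general yield), and no test over samples was possible.

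Heme is an iron-bearing porphyrin. Its synthesis begins in the mitochondrion with aminolevulinate, passes through the cytosol and ends in the mitochondrion, where ferrochelatase inserts the iron. The prothoracic gland is a heavy user of both products of iron metabolism, since the cytochrome P450 enzymes of ecdysone synthesis carry heme, and the adrenodoxin that feeds electrons to the mitochondrial ones carries an iron-sulfur cluster. Ferritin stores iron, and iron regulatory proteins bind hairpins called iron-responsive elements in messenger RNAs when iron is short. When iron is plentiful, such proteins carry an iron-sulfur cluster and work as cytosolic aconitases.

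Because only GATC sites can report binding, the sites themselves are shown first. Each stretch is the 240 bases with the most GATC sites that held no annotated UTR, taken within the peak (counting the GATC site at its edge) for bound genes and within the gene for unbound ones. It is written 5′ to 3′ along the gene from the RefSeq Release 6 genome (dm6), with GATC in capitals. Of the bound genes only Ppox, Irp-1A and Irp-1B are shown, the genes whose promoter sequence is also given below. Stretches not shown held 1 site at FeCH, 2 at Coprox and 3 at Fer2LCH.

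Ppox (3R:24661102-24661341, minus strand): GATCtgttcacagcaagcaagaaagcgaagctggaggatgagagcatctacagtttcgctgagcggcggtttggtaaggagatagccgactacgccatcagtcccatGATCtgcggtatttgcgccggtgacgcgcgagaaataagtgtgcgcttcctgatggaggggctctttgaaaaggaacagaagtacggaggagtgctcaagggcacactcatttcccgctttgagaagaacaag
Irp-1A (3R:22723659-22723898, minus strand): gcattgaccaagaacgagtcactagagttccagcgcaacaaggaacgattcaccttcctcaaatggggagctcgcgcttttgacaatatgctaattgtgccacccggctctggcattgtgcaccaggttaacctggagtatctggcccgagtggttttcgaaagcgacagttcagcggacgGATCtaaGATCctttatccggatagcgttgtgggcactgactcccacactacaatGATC
Irp-1B (3R:10411675-10411914, minus strand): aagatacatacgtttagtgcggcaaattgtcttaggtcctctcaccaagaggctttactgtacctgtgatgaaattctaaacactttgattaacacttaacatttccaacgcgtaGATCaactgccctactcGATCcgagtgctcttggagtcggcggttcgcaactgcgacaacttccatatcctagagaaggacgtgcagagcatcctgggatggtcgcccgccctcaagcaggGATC

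The unbound ferritin genes are shown in the same way, so that their GATC sites can be seen beside those of the bound genes.

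Fer1HCH (3R:30386298-30386537, minus strand): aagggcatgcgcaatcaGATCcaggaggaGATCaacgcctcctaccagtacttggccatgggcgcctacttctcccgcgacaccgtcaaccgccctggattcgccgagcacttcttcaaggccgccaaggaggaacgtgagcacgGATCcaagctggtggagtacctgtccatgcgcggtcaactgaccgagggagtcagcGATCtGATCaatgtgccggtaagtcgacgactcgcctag
Fer3HCH (X:13107770-13108009, minus strand): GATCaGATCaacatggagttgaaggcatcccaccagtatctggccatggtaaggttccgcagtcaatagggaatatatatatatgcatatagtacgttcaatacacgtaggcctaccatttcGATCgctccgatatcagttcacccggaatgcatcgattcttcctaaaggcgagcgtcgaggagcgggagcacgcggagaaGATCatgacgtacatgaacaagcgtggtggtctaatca

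The bound stretches shown held 2 sites at Ppox and 3 each at Irp-1A and Irp-1B, and the unbound ones held 5 at Fer1HCH and 4 at Fer3HCH. These counts are not like for like, since the search covered only the peak in bound genes and the whole gene in unbound ones. Over the whole gene, Fer1HCH had 9 GATC sites in 2606 bp and Fer3HCH had 6 in 813 bp. Whether the number of sites bears on the missing peaks was not tested. The bound Fer2LCH had 6 sites in 2781 bp and the bound Ppox 6 in 1655 bp. The 9 genes had a median of 8 sites and a median length of 1986 bp, and the listed protein-coding genes as a whole had medians of 13 sites and 2972 bp, with 10 sites and 2166 bp over all protein-coding genes.

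KDM5 peaks lay over 7 of the 9 genes (77.8%), against 38.5% of all protein-coding genes on the authors' list. Each of the 7 bound genes held 1 peak, as did 78.2% of listed protein-coding genes with a peak in the body. The binding score, the authors' value for a peak relative to Dam alone, ranged from 4.61 at Ppox to 6.85 at Irp-1B with a median of 5.37, and the median over all 5364 listed protein-coding genes was 4.75, with quartiles of 3.46 and 6.22. How the score summarises a peak, and whether it is on a log scale and to which base, are not stated, so it is used only to order peaks of this list. All 7 scores were at or above 4.55, the median over all peaks. Of the 5402 protein-coding genes under any peak (38.7% of all), 2905 lay under a peak at or above that median (20.8% of all). Ppox (4.61) and Fer2LCH (4.63) scored below the median of 4.75 for listed genes. The order was Irp-1B, Irp-1A, FeCH, Alas, Coprox, Fer2LCH and Ppox, and without replicates neighbours in this order could not be told apart.

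**Figure D1:**
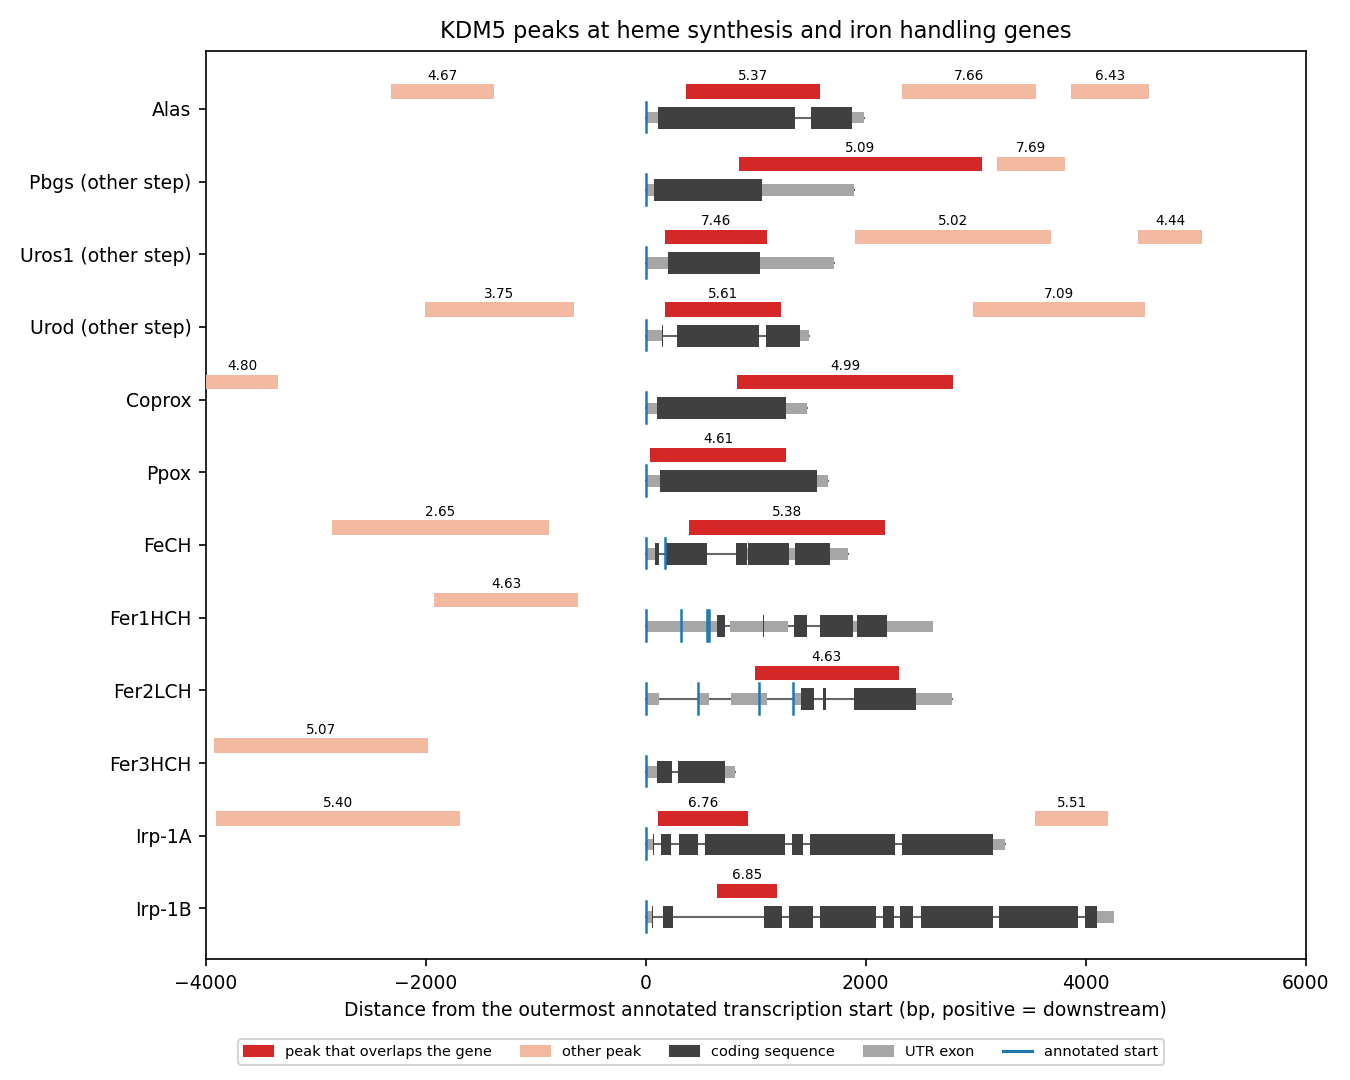
KDM5 peaks (upper bars, with their binding scores) above the exons of the 9 genes and of 3 other heme synthesis enzymes (marked "other step"), drawn by distance in bp from the outermost annotated start, downstream to the right; dark red peaks overlap the gene, pale ones do not, and blue ticks mark annotated starts. The dark red peaks all begin past the outermost start, and Fer1HCH and Fer3HCH carry none.

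The enzymes of heme synthesis examined here were all bound. The list of 9 names 4 enzymes, and a further 3, Pbgs, Uros1 and Urod, came from a wider list. All 7 of these 7 enzymes were on the authors' list, against 38.5% of all protein-coding genes. Their scores ran from 4.61 to 7.46 with a median of 5.37. The enzyme genes lie on several chromosome arms.

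Alas encodes aminolevulinate synthase, which joins glycine to succinyl-CoA in the step that starts the pathway. Its peak on 2R (23965132 to 23966358) scored 5.37 with an FDR of 3.56e-28 and covered 61.8% of the gene. Of 1227 bp, 1083 bp were coding and 144 bp intronic, and no other protein-coding gene lay under it. The peak began 360 bp past the start. Further peaks of 7.66 and 6.43 began 2329 and 3868 bp downstream of the Alas start, beyond the gene's end, so the strongest signal nearby lay outside Alas.

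Pbgs, Uros1 and Urod work in the cytosol. Pbgs, porphobilinogen synthase, scored 5.09 (3L, 12268292 to 12270501). This peak began 844 bp past the start, and 840 bp of it lay in the 3′ UTR, 210 bp in coding sequence and 1160 bp outside the gene, and it was shared with CG32100. Uros1, uroporphyrinogen III synthase, scored 7.46 (X, 8899166 to 8900090), with 834 of 925 bp coding and no other protein-coding gene. Urod, the decarboxylase that follows and is named Updo in the files, scored 5.61 (2R, 9584818 to 9585873), with 887 of 1056 bp coding. Uros1 thus had the highest score of the 7 enzymes, above 90.3% of listed genes.

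Coprox, coproporphyrinogen oxidase, had its peak at the end of the gene and not at its beginning. At 4.99 and an FDR of 8.33e-08, the peak (2L, 6965252 to 6967215) began 831 bp past the start. Of its 1964 bp, 440 bp were coding sequence and 196 bp 3′ UTR of Coprox, and 1328 bp lay outside the gene. It reached 436 bp into Sumo, which encodes the small ubiquitin-like modifier and is named smt3 in the files. The peak's centre was 1357 bp from the Sumo start and 1812 bp from that of Coprox.

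Ppox, protoporphyrinogen oxidase of the mitochondrial inner membrane, had a peak that filled most of the gene. It spanned 3R, 24660574 to 24661816, scored 4.61 with an FDR of 3.85e-09, and began 35 bp past the start. It covered 75.1% of the gene, with 1152 bp in coding sequence and 91 bp in the 5′ UTR, and touched no other protein-coding gene. No other peak lay within 10 kb of the Ppox start.

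FeCH encodes ferrochelatase, the enzyme that completes heme. Its peak (3R, 31810123 to 31811900) scored 5.38 with an FDR of 6.6e-09 and covered 78.4% of the gene. The peak held 949 bp of coding sequence, 262 bp of intron and 219 bp of 3′ UTR, and began 218 bp past the nearer of 2 annotated starts. A total of 337 bp lay beyond the gene, and 64 bp of these covered the start of Rift, which was also listed. A second peak upstream, outside FeCH, scored 2.65.

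**Figure D2:**
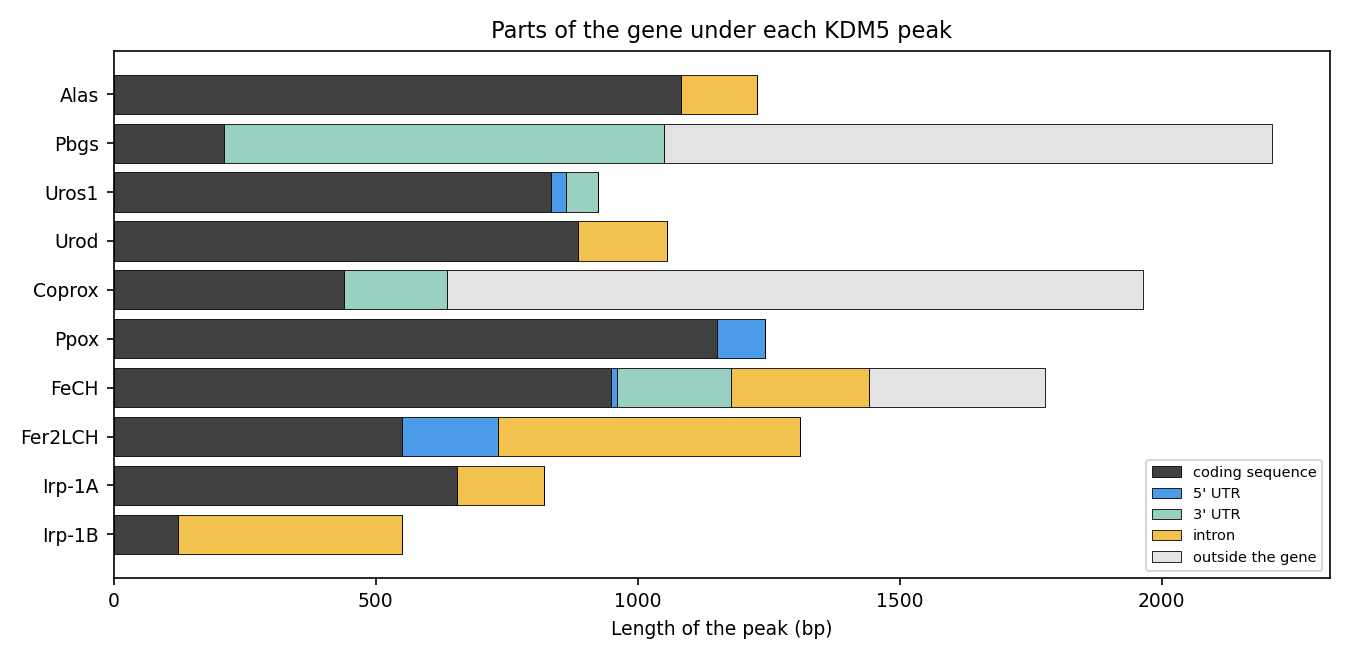
Length in bp of the peak at each of the 7 heme synthesis enzymes and each bound iron gene of the 9, divided into coding sequence, 5′ UTR, 3′ UTR and intron of that gene and sequence outside it; where transcripts differ, coding sequence was counted before UTR. Coding sequence makes up most of the peaks at Alas, Uros1, Urod, Ppox, FeCH and Irp-1A, and the peaks at Pbgs and Coprox lie mostly outside the gene.

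The peaks of these genes mostly missed the annotated start, and those at Pbgs, Coprox and FeCH ran past the end of the gene. None of the 7 heme enzyme peaks covered an annotated start of its gene, and of the 7 bound genes of the list of 9 only Fer2LCH had one covered, at internal starts. Among all listed protein-coding genes, 51.9% had a peak over an annotated start. So did 11 of the 22 listed genes among the 31 other heme and iron genes described below, which include Pbgs, Uros1 and Urod. The peaks at Alas, Ppox, Fer2LCH, Irp-1A and Irp-1B, 5 of 7, lay wholly inside the gene, as did the highest peak of 40.7% of listed genes with a peak in the body. Gaps between the start and the peak ran from 35 to 844 bp over the 7 enzymes. Every peak begins and ends at a GATC site, so these gaps are no finer than the spacing of sites. A short gap therefore does not place KDM5 past the start. These counts are small, and their differences from all listed genes were not tested.

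Both genes for iron regulatory proteins were bound, and they had the highest scores among the 9. Irp-1A is the Drosophila protein that binds iron-responsive elements. Its peak (3R, 22723660 to 22724480) scored 6.76, above 82.3% of listed protein-coding genes, with an FDR of 0.000286. It began 107 bp past the start and held 655 bp of coding sequence and 166 bp of intron. Irp-1B is a close paralog with aconitase activity that does not bind these elements. Its peak (3R, 10411676 to 10412226) scored 6.85, above 83.2% of listed genes, with an FDR of 2.08e-08. It was the shortest of the 7 at 551 bp, spanned 4 GATC fragments, began 643 bp past the start and lay mostly in an intron (428 bp). The paralogs differed by less than 0.1 in score, while the peak covered 25.1% of Irp-1A and 13% of Irp-1B. The antisense gene CR45648 shares the Irp-1A peak in the authors' list, and TaDa cannot assign it to either strand.

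Of the 2 mitochondrial aconitase genes, relatives of Irp-1A and Irp-1B, 1 was listed, against 38.5% of all protein-coding genes. mAcon1, the enzyme of the TCA cycle, scored 7.2 in a peak of 649 bp that was mostly intronic. mAcon2 was not listed, and its nearest peak, at cu, was 59724 bp away.

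The ferritin genes differed among themselves. Fer2LCH encodes the light chain of the secretory-pathway ferritin and Fer1HCH its heavy chain, and the genes stand head to head with overlapping 5′ ends. The pair's only peak (3R, 30388793 to 30390102) overlapped Fer2LCH and not Fer1HCH. It scored 4.63 with an FDR of 1.07e-14 and lay wholly in Fer2LCH, with 551 bp in coding sequence, 577 bp in introns and 182 bp in 5′ UTRs. It covered internal starts of Fer2LCH, which has 4 annotated starts, and began 989 bp past the outermost one. Fer1HCH, with 4 starts and 9 transcripts, had no peak in its body, and this peak began 615 bp beyond its outermost start. The stretch where the pair's outermost starts lie thus carried no peak.

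Fer3HCH encodes the mitochondrial ferritin. It was not listed, and its nearest peak (X, 13110177 to 13112120, with a score of 5.07) lay 1983 bp upstream, inside Chpf. Fer3HCH was the only one of the 9 with no peak within 1 kb of a start.

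Ferritin is a classic target of iron regulatory proteins, so its element was looked for. The search asked for a C, then 5 bases, then the loop CAGTGN, with those 5 bases able to pair with the 5 after the loop, on the transcript's strand of annotated 5′ UTRs. Among the genes of this report only Fer1HCH held a match, and 15 of 13454 protein-coding genes with a 5′ UTR (0.111%) did. The matched bases are shown because Irp-1A is known for binding such sites, with the loop in capitals.

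Fer1HCH element (3R:30387687-30387703, minus strand): ctgcgcCAGTGTgtgta

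The element stood in the 5′ UTR of 1 of 9 annotated Fer1HCH transcripts, and the nearest KDM5 peak was 1090 bp away. A match describes letters only.

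Promoter sequence was searched for the DNA replication-related element (DRE; TATCGATA, palindromic, so both strands at once), which the factor DREF binds at many genes for growth and basic cell functions in flies. Within 250 bp of the outermost start, 3 of the 9 genes held it, Ppox, Irp-1A and Irp-1B, against 9.9% of all protein-coding genes. The 80 bases before each start are shown for these genes, whose peaks begin 35, 107 and 643 bp downstream. The DRE is in capitals.

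Ppox (3R:24661852-24661931, minus strand): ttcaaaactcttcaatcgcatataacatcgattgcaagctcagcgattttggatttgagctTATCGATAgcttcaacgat
Irp-1A (3R:22724588-22724667, minus strand): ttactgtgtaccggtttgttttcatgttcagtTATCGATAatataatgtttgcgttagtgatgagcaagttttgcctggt
Irp-1B (3R:10412870-10412949, minus strand): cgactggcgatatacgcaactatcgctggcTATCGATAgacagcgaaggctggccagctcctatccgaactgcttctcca

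The element was centred 15 bp before the Ppox start and 44 and 46 bp before the Irp-1A and Irp-1B starts, and it lay outside the peak in each case. The E-box CACGTG, which Myc and Max bind, was in none of the 9 windows and in 6.98% of those of all protein-coding genes.

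Other genes of heme and iron metabolism were taken from 6 lists, and 31 are reported here. The lists were written from textbook membership, with earlier results of these data known. A total of 22 of the 31 were listed (71%), with a median score of 5.71, against 38.5% of all protein-coding genes and a median of 4.75 over those listed. Among iron carriers and transporters, 5 of 8 were listed. mfrn, mitoferrin, which brings iron into mitochondria for heme and cluster synthesis, scored 9.17, more than any other gene of the 40 and above 99.5% of listed genes. Its peak of 1699 bp (3R, 27945807 to 27947505) began 516 bp past the start, lay mostly in introns (1387 bp) and touched no other protein-coding gene. Mvl, a metal importer of the NRAMP family, scored 8.35 from a peak 2577 bp past its nearest start. The transferrin gene Tsf3 scored 7.08, Zip99C, which moves iron into the secretory pathway, 6.57, and Tsf2 5.04. Tsf1, the transferrin of the hemolymph, and the multicopper oxidase genes Mco1 and Mco3 were not listed, and their nearest peaks were 2160, 3726 and 17919 bp away.

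Iron-sulfur cluster assembly, the other main use of mitochondrial iron, was listed for 11 of 13 genes, against 38.5% of all protein-coding genes. Nfs1, the cysteine desulfurase, scored 5.51, and its peak covered 86.9% of the gene. IscU, the scaffold, scored 5.86 and held 2 peaks, and bcn92, the small partner of Nfs1, scored 4.47. The ferredoxin genes Fdx1 and Fdx2 scored 5.82 and 5.08, and their reductase dare 5.51. MagR, CG8043 and Grx5 of later steps scored 4.82, 4.46 and 3.06, and Ciao1 and Mms19 of the cytosolic machinery 6.14 and 6.96. Frataxin (fh) and CG13623 were not listed, with nearest peaks 2169 and 33285 bp away. Of the 11, bcn92 and Fdx2 alone had peaks that touched no other protein-coding gene. Over all 4931 peaks, 60.9% overlapped exactly 1 protein-coding gene. The CG8043 peak covered parts of mRpL19, Unc50 and CG11755 as well, and that of Mms19 lay mostly in Kat60, with 249 of 1955 bp in Mms19.

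The lists for using and breaking down heme were small. Of 3 genes for the heme of cytochromes, 1 was listed, near the 38.5% of all protein-coding genes. This was Cchl, the cytochrome c heme lyase, which scored 6.03 in a peak shared with CG6028. Cox10 and CG3803, which make the heme of cytochrome oxidase, were not listed. A peak over thoc5 scoring 5.3 lay 144 bp before the CG3803 start, and one over GATAd scoring 5.03 lay 742 bp past the end of Cox10. Heme oxygenase (Ho), which opens the heme ring and frees its iron, scored 3.83 in a peak shared with Taf12. CG1358 had been put on the list as a possible heme exporter. The annotation names it HisT, its role in heme transport is uncertain, and it had no peak within 10 kb of its outermost start.

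**Figure D3:**
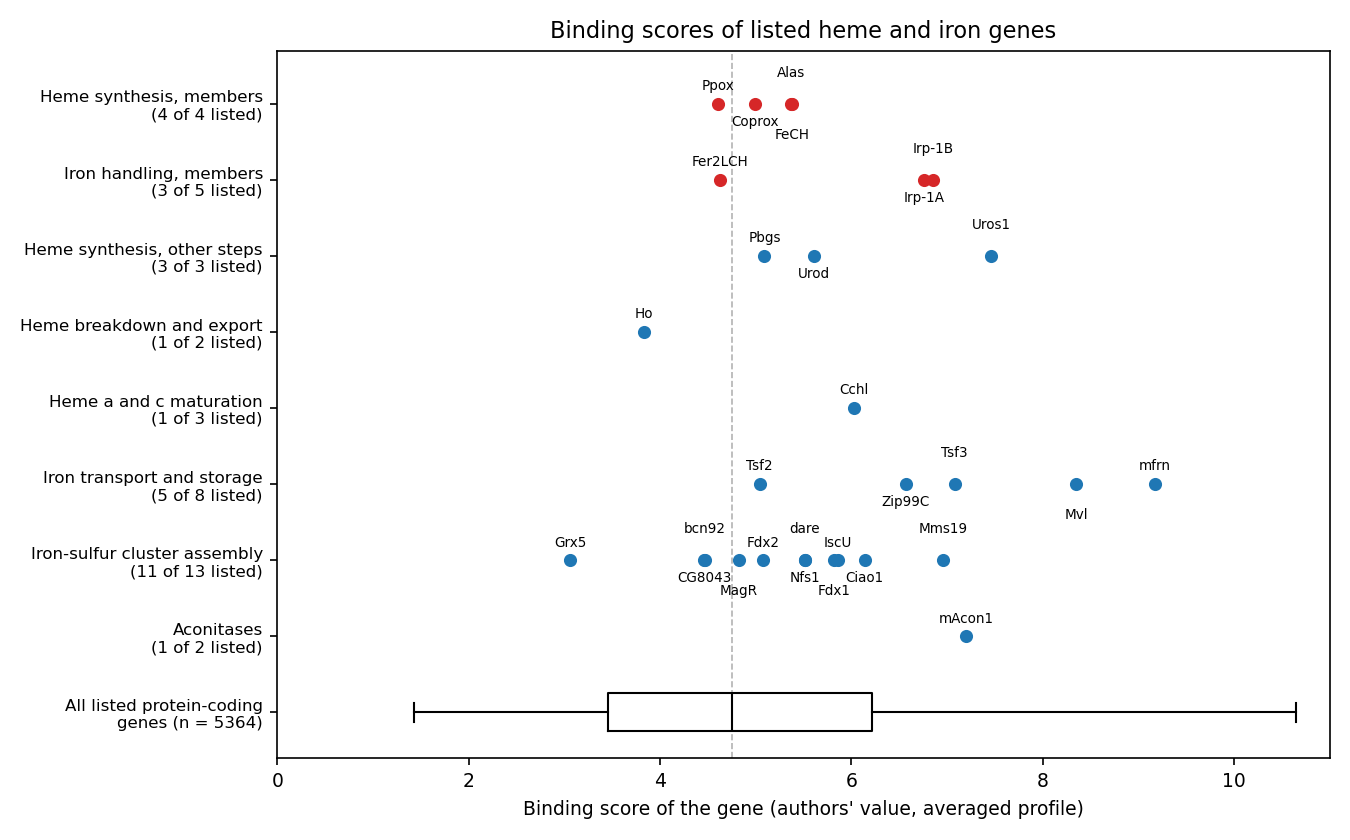
Binding score of each listed gene by list, with the 9 genes of this report in red and the wider lists in blue, above a box for all 5364 listed protein-coding genes (line, median of 4.75; box, quartiles; whiskers, full range); genes not listed have no point, and labels give how many are listed. Irp-1A and Irp-1B lie beyond the upper quartile of 6.22, and mfrn has the highest score of these genes.

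The number of the 9 genes counted as bound ran from 5 to 8 over the rules. It was 7 by overlap with the gene body, a rule that called 38.7% of all protein-coding genes. It was 8 with peaks within 1 kb of an annotated start (39.9% of all), where Fer1HCH joined, and 5 within 500 bp (32% of all), without Coprox and Irp-1B. With each peak given to the gene with the nearest start (29% of all), the number was 5. Coprox and FeCH lost their peaks to Sumo and Rift, and of the 7 heme enzymes 4 remained, namely Alas, Uros1, Urod and Ppox.

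**Figure D4:**
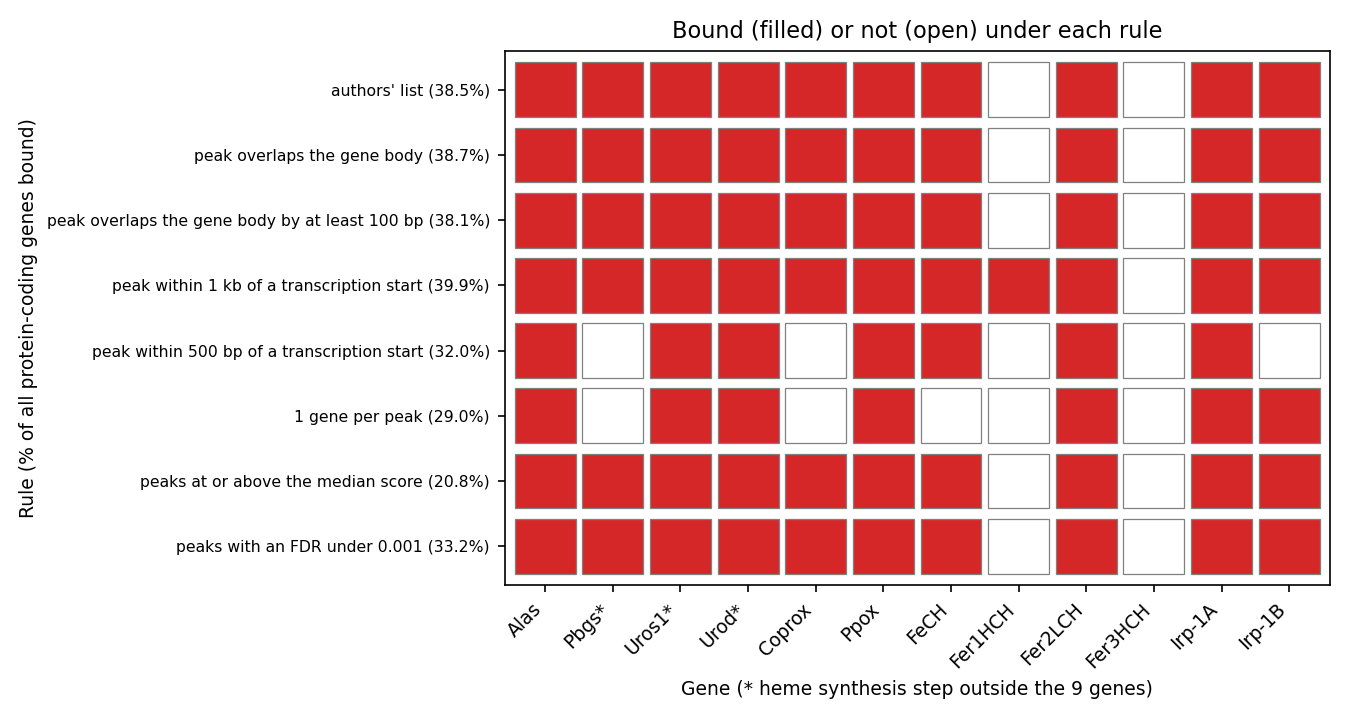
Calls for the 9 genes and 3 other heme synthesis enzymes (marked *) under the authors' list and 7 other rules; a filled box is a bound gene, and the percentage beside each rule is the share of all protein-coding genes it calls bound. Alas, Ppox, Fer2LCH and Irp-1A are filled throughout, as are Uros1 and Urod, and Fer3HCH is open throughout.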

How the data were processed

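Reads were aligned by the authors to dm6 and turned into Dam:KDM5 against Dam alone profiles with damidseq_pipeline. The 4 replicates were averaged, peaks were called on the average with find_peaks (FDR of 0.01, min_quant of 0.9), and overlapping genes were listed with peaks2genes. For these tools no version was given in the sources used here. Deposited values are a binding score per peak, per gene name and per gene ID, with an FDR per peak. Peaks called on an average cannot show variation between replicates.

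From these files, genes were looked up by FlyBase ID. Of 5815 IDs, 5799 were found in the Ensembl release 115 annotation of the chromosome arms, a further 11 through their symbol or synonym, and 5 had no match. Each of the 4931 peaks started and ended 1 bp past the start of a GATC site of the RefSeq Release 6 genome, so positions are dm6, as the deposited list gives them. Overlaps, distances and sequences were computed in Python 3.11.15, with functions tested on simulated intervals. Distances to a start are from the peak's nearer edge.

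All 9 genes and the genes of the 6 wider lists are named, except that some genes of the wider lists are not reported here and were left out of every list count, with the genes that share their peaks or lie under the nearest peak. The genes and lists were chosen with earlier results of these data known. The alternative rules for a bound gene were planned for the 9 genes and the wider lists, and their use on the 7 heme enzymes was chosen after seeing the data. No set test or chance test was made.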

Additional observations from a re-analysis of the deposited data

How the results depend on the processing

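The number of bound genes among the 9 was 7 on the authors' list and ran from 5 to 8 over the 7 alternative rules, and among the 31 other heme and iron genes it was 22 and ran from 16 to 22, while these rules called from 20.8% to 39.9% of all protein-coding genes. For the 7 heme synthesis enzymes, a count whose alternatives were chosen after seeing the data, it was 7 under each rule except 5 with peaks within 500 bp of a start and 4 with 1 gene per peak. The last rule calls 29% of all protein-coding genes, against 38.5% on the authors' list. No paired analysis was possible because only averaged values were at hand, and for the same reason no replicate could be left out. The read count of each sample is unknown here beyond the general yield in the methods, so a gene without a peak was not called bound at this depth and threshold, which does not show that KDM5 is absent from it.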

Other observations

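The surroundings of these genes differed in how many peaks they held. Within 10 kb of the outermost start, Alas had 7 peaks and Urod 6, Ppox, Fer1HCH and Fer2LCH had 1 each, and the median over listed protein-coding genes was 3. Around Pbgs the neighbouring peak scored 7.69, above the 5.09 of the peak that overlaps Pbgs. Among the 31 other heme and iron genes, the DRE was found near the starts of 4, Zip99C, Fdx1, CG13623 and Grx5, against 9.9% of all protein-coding genes. The E-box was found near those of 2, bcn92 and MagR, against 6.98% of all, and of these genes CG13623 alone was not listed.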
